A study of Mus musculus with 6 samples.

Results

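The miR-30 family was followed in small RNA libraries of cultured mouse macrophages with and without apolipoprotein E (ApoE), a lipid-transport protein that macrophages secrete. Its members were taken by name from the deposited tables of mature microRNAs (miRNAs). They were 8 of the 911 mature references listed over all libraries, and none sat in a joint entry of near-identical miRNAs. They comprised 5 guide arms (mmu-miR-30a-5p, mmu-miR-30b-5p, mmu-miR-30c-5p, mmu-miR-30d-5p and mmu-miR-30e-5p, written without the species prefix from here on) and 3 arms from the 3' side of the hairpin (mmu-miR-30a-3p, mmu-miR-30d-3p and mmu-miR-30e-3p). The comparison was of 3 libraries from ApoE-knockout (EKO) macrophages with 3 from wild-type (WT) macrophages, and the series' design text calls the replicates biological. In both genotypes the cells were grown from the marrow of male mice aged 6 to 12 weeks in medium with 10% serum, and the cytokine M-CSF, which drives marrow progenitors to become macrophages, was added at 25 ng/mL every 2 days over 6 days. Neither the strain nor the kind of knockout allele is stated in the sources used. These libraries hold no Apoe mRNA counts, and so the genotype labels could not be checked from the data.

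A miRNA hairpin is cut into a duplex, and usually one strand, the guide, stays in the Argonaute protein while its partner is degraded. Argonaute finds messenger RNAs mainly through the seed, the stretch of the guide that begins at its second base, so miRNAs with a common seed share many targets. The guide arms of the miR-30 family share one seed. In mice, miR-30c was shown to lower lipoprotein secretion by acting on Mttp, whose product, a triglyceride transfer protein, loads lipid onto apolipoprotein B. The family is also known for acting on Becn1, an autophagy gene, and on the Notch ligand transcript Dll4, the last of these also in macrophages of mouse fat tissue.

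Mature sequences for 5 of the 8 members were found by name in the RefSeq annotation of the GRCm38.p6 assembly. They are shown because the seed defines the family and because the arms differ by few bases, which matters for how reads are divided among them. Capitals mark the seed, bases 2 to 8 from the 5′ end.
miR-30a-5p: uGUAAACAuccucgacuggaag
miR-30c-5p: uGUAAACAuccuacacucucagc
miR-30e-5p: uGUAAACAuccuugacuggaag
miR-30a-3p: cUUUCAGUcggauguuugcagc
miR-30e-3p: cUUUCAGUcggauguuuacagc
The 3 guide arms shown share the seed GUAAACA, which 4 of the 1679 mature miRNAs in the RefSeq table carry. The fourth is miR-384-5p. Counted from the 5′ end, miR-30a-5p and miR-30e-5p differ only by C13U. From miR-30a-5p, miR-30c-5p differs at 5 of the 22 positions compared, the first being C13A. The arms of the other strand, miR-30a-3p and miR-30e-3p, share the seed UUUCAGU with no other mature miRNA in the table, are identical over their first 17 bases and differ only by G18A.

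These 5 arms come from 4 hairpins on 2 chromosomes in that assembly. The mature miR-30a-5p lies at chr1:23272274-23272295 on the plus strand, with miR-30a-3p at chr1:23272315-23272336, outside any annotated host gene. The mature miR-30c-5p is encoded at 2 places with the same sequence, so its reads cannot be assigned to one of them: at chr1:23291714-23291736 on the plus strand, in a hairpin that overlaps an exon of the long non-coding RNA gene Gm27028, and at chr4:120769584-120769606 on the minus strand. On the same strand, miR-30e-5p lies at chr4:120772660-120772681 and miR-30e-3p at chr4:120772618-120772639. The hairpins Mir30c-1 and Mir30e stand 2983 bases apart in introns of Nfyc, which encodes a subunit of the NF-Y transcription factor, and Mir30a and Mir30c-2 stand 19361 bases apart.

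The EKO libraries held 34651516 to 39532548 estimated reads on mature miRNAs, against 38440296 to 41331600 in the WT libraries. Fewer mature references were listed in the EKO libraries, 543 to 591, than in the WT libraries, 668 to 698. Levels are counts scaled to a library total of 1000000 reads (CPM), with further scaling between libraries by the trimmed mean of M-values (TMM). Ligation and amplification favour some small RNAs, and column-purified total RNA can lose part of them, so CPM of different miRNAs are not on a common scale and an order of levels between arms is one of reads, not of molecules. In total RNA from a culture, fewer cells that make a miRNA and less of it per cell cannot be told apart. Genotypes were compared for all 575 miRNAs that passed a low-count filter, and all 8 members passed it. By edgeR's quasi-likelihood test with Benjamini-Hochberg adjustment over all 575, 0 of the 8 members were called at the 0.05 threshold, where 0.0% of all tested miRNAs were called and the smallest adjusted p was 0.0766. At an unadjusted p under 0.05 there were 3 members lower and 1 higher in EKO, beside 13% and 8.35% of all tested miRNAs.

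The guide arms other than miR-30d-5p had lower mean levels in EKO macrophages than in WT macrophages, while the far more abundant miR-30d-5p differed by less than the spread between libraries. All 5 guide arms had a log2 fold change (EKO over WT) below 0 with TMM scaling, 4 of 5 with DESeq2 size factors, where miR-30d-5p stood at 0.02, beside 58.3% of all tested miRNAs below 0 with TMM. At an unadjusted p under 0.05, 3 of the 5 were lower in EKO (miR-30b-5p, miR-30c-5p and miR-30e-5p), beside 13% of all tested miRNAs. In 3 of the 5 (miR-30a-5p, miR-30c-5p and miR-30e-5p) every EKO library lay below every WT library, beside 18.8% of all tested miRNAs. The median log2 fold change was -0.71 over the 5 guide arms and -0.16 over all tested miRNAs.

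**Figure D1:**
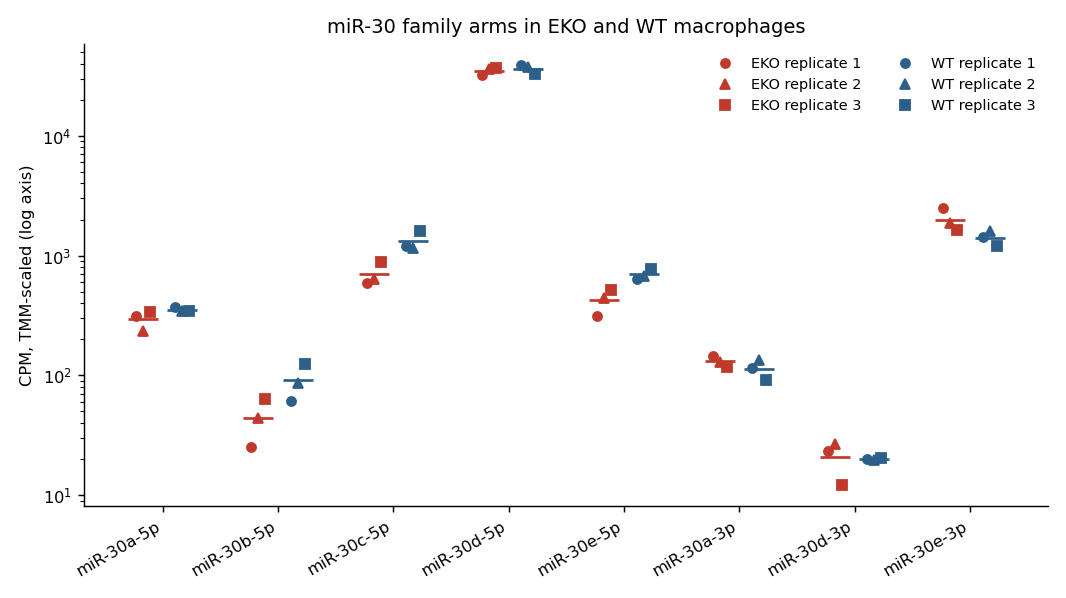
Level of each miR-30 arm in each library, in TMM-scaled CPM on a log axis. Points are libraries (red EKO, blue WT, shape by replicate) and bars are means of 3 libraries. For miR-30c-5p the EKO libraries sit between 586 and 889 CPM and the WT libraries between 1164 and 1616, while the miR-30d-5p points of both genotypes lie between 32324 and 39007 CPM.

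The difference with the smallest p in the family was that of miR-30c-5p, the arm known for acting on Mttp. It had 586, 631 and 889 CPM in EKO replicates 1 to 3, against 1208, 1164 and 1616 CPM in WT replicates 1 to 3. The highest EKO library stood below the lowest WT library, and replicate 3 was the highest in both genotypes. The mean in EKO was 0.528 of that in WT, with a log2 fold change of -0.92 ± 0.20 (SE, 3 libraries each) that missed the threshold (edgeR adjusted p = 0.0766).

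The near neighbour of one miR-30c hairpin, miR-30e-5p, gave a like picture. Its level was 312, 444 and 516 CPM in the EKO libraries, against 639, 676 and 770.3 CPM in the WT libraries. The groups did not overlap, and in both genotypes the order of the replicates was the same, with replicate 1 lowest and replicate 3 highest. Its mean was 424 ± 104 CPM in EKO and 695 ± 67.4 CPM in WT (SD, n = 3 each). The log2 fold change of -0.71 ± 0.19 (SE) came with an edgeR adjusted p of 0.0848.

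The scarcest guide arm was miR-30b-5p. It had 25.3, 44.3 and 63.5 CPM in EKO macrophages, against 61.2, 85.6 and 125 CPM in WT macrophages. Replicate 3 of EKO lay just above replicate 1 of WT, so the groups overlapped, although each EKO replicate was lower than the WT replicate of the same number, which marks no known pairing. The log2 fold change was -1.03 ± 0.38 (SE) with an adjusted p of 0.157 (edgeR). Between the highest and the lowest library of 1 genotype its level differed 2.51-fold in EKO and 2.05-fold in WT, a wider spread than that of any other guide arm.

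For miR-30a-5p, the arm known for acting on Becn1, the values were 310.2, 234 and 339 CPM in EKO against 375, 342 and 344 CPM in WT. The groups did not overlap, but the highest EKO library all but reached the lowest WT library. The log2 fold change, -0.26 ± 0.16 (SE, edgeR adjusted p = 0.467), was close to the median of all tested miRNAs.

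The predominant member, miR-30d-5p, ranked between 5 and 8 among all mature references in every library. It had 32324, 35835 and 36557 CPM in EKO against 39007, 37228 and 32781 CPM in WT. The ranges overlapped, with WT replicate 3 between the lowest and the middle EKO library. Its means were 34906 ± 2264 CPM in EKO and 36339 ± 3207 CPM in WT (SD, n = 3 each). The difference on the log2 scale was -0.06 ± 0.10 (SE, edgeR adjusted p = 0.861), and it turned to 0.02 with DESeq2 size factors.

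Because the guide arms share a seed, their summed level was also taken. It was 33558, 37189 and 38365 CPM in EKO against 41289.8, 39496 and 35636 CPM in WT, with overlapping ranges. Without miR-30d-5p the sum was 1233, 1354 and 1808 CPM in EKO against 2283, 2267 and 2856 CPM in WT, with no overlap. That smaller sum was mostly miR-30c-5p (46.6% to 49.2% in EKO, 51.3% to 56.6% in WT) and miR-30e-5p, so its lack of overlap restates theirs. The share of miR-30d-5p in the guide-arm reads was accordingly higher in EKO, at 96.3%, 96.4% and 95.3%, against 94.5%, 94.3% and 92.0% in WT. The 8 members together took 3.39% to 4.11% of the reads in EKO and 3.87% to 4.32% in WT.

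Among the arms from the 3' side, miR-30e-3p had the difference with the smallest p, with higher values in EKO. All 3 listed arms had a log2 fold change above 0, beside 41.7% of all tested miRNAs, although that of miR-30d-3p was 0.05 ± 0.34 (SE) and turned to -0.03 with limma-voom. At an unadjusted p under 0.05 only miR-30e-3p was higher in EKO, 1 of 3 beside 8.35% of all tested miRNAs. It was also the only one of the 3 whose groups did not overlap, beside 12.5% of all tested miRNAs. Their median log2 fold change was 0.20.

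In reads, which do not give an order of molecules, miR-30e-3p exceeded miR-30e-5p in every library. The same held for miR-30b-3p, an arm outside the members, over miR-30b-5p. The name guide arm is thus used here for the listed 5p arms whatever their share of reads. In human glioma cells miR-30e-3p has been described as acting on the transcript of the NF-kB inhibitor IkBa. Its level was 2487, 1852 and 1642 CPM in EKO, against 1434, 1607 and 1196 CPM in WT. Every EKO library stood above every WT library, with EKO replicate 3 close above WT replicate 2. The mean in EKO was 1.41-fold that in WT, with a log2 fold change of 0.50 ± 0.18 (SE) and an adjusted p of 0.154 (edgeR). Without EKO replicate 1, its highest library, the log2 fold change was 0.31.

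The other 2 arms from the 3' side overlapped between genotypes. The reads of miR-30a-3p came to 146, 128 and 118 CPM in EKO and 114, 135 and 91.7 CPM in WT, with a log2 fold change of 0.20 ± 0.19 (SE, edgeR adjusted p = 0.702). Those of miR-30d-3p were 23.2, 26.8 and 12.2 CPM in EKO and 20.0, 19.7 and 20.3 CPM in WT. Its EKO libraries thus spread 2.20-fold around WT libraries that stood within 1.03-fold of each other.

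**Figure D2:**
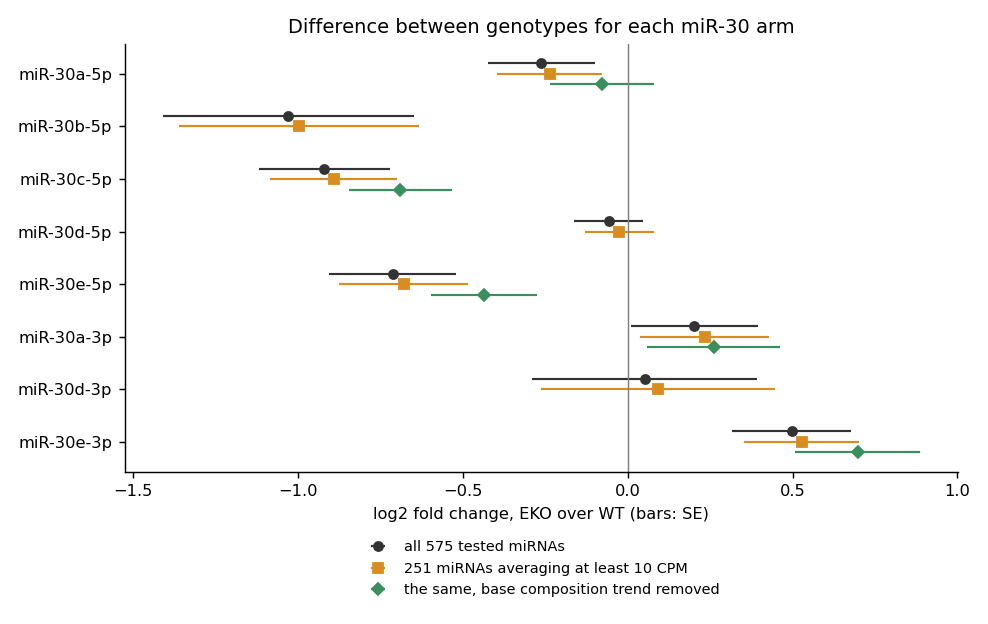
Log2 fold change of each arm, EKO over WT, with its SE, in the fit over all 575 tested miRNAs (black circles), over the 251 averaging at least 10 CPM (orange squares) and over those with the trend in base composition removed (green diamonds, for the 5 arms with a sequence). In these fits the guide arms lie left of 0 and the arms from the 3' side right of 0, although miR-30d-5p stood at -0.06, turned to 0.02 with DESeq2 size factors, and miR-30d-3p at 0.05 turned to -0.03 with limma-voom.

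The call on 3 of the 8 members depended on the test and the filter. When only the 251 miRNAs with a mean of 10 CPM or more were tested, miR-30c-5p (log2 fold change -0.89 ± 0.19 SE, adjusted p = 0.0231) and miR-30e-5p (-0.68 ± 0.19, adjusted p = 0.0391) were lower (edgeR), beside 12.7% of those 251 miRNAs. In that fit miR-30e-3p just missed the threshold (0.53 ± 0.18, adjusted p = 0.0579), and 10.8% of the 251 were called higher. DESeq2 on all libraries called miR-30c-5p (adjusted p = 0.000897) and miR-30e-5p (adjusted p = 0.0174) lower, beside 8.69% of miRNAs, and miR-30e-3p (adjusted p = 0.0291) higher, beside 7.62%. The call of limma-voom was miR-30c-5p alone (adjusted p = 0.0410), beside 4.0% of miRNAs called lower and 1.57% called higher.

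Base composition differs between these arms, from 40.9% G and C in miR-30e-5p to 50.0% in miR-30a-3p, and it can shift reads between libraries. A value for it was at hand for 221 of the 251 miRNAs averaging at least 10 CPM (88.0%), including 5 of the 8 members. With each library's trend in base composition over those 221 removed, the log2 fold change was -0.69 ± 0.16 (SE) for miR-30c-5p (adjusted p = 0.0141), -0.44 ± 0.16 for miR-30e-5p (adjusted p = 0.0760) and 0.70 ± 0.19 for miR-30e-3p (adjusted p = 0.0307, edgeR for all 3). The guide arms thus moved toward 0 and miR-30e-3p away from it, and miR-30e-5p lost the call it had under the same filter. Of the 221, 5.43% were called lower and 10.4% higher. The log2 fold change of miR-30a-5p became -0.08 ± 0.16.

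Ratios of 2 arms inside 1 library need no scaling between libraries. In all, 13 were tested, the 10 pairs of guide arms and the arms of 3 hairpins, by a two-sided exact permutation test that cannot go below p = 0.1 with 3 libraries against 3. None passed after Benjamini-Hochberg adjustment over the 13, and 4 had groups that did not overlap. Such a lack of overlap was seen in 38.6% of pairs of references averaging at least 10 CPM. Of hairpins with both arms at that level, 25.0% had lower and 19.2% higher arm ratios in EKO without overlap.

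The arm balance of miR-30e gave the largest difference of the 13. The log2 ratio of miR-30e-5p to miR-30e-3p was -3.0, -2.06 and -1.67 in EKO against -1.17, -1.25 and -0.63 in WT. In reads, miR-30e-3p exceeded miR-30e-5p by 7.98-fold, 4.17-fold and 3.18-fold in EKO, against 2.24-fold, 2.38-fold and 1.55-fold in WT. The difference in log2 ratio was -1.23 ± 0.44 (SE, exact permutation p = 0.1, adjusted p = 0.325). It was the fifth lowest among 52 hairpins with both arms averaging at least 10 CPM, of which 25.0% had lower and 19.2% higher ratios in EKO without overlap.

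The 2 other hairpins with both arms among the members showed smaller differences. The log2 ratio of miR-30a-5p to miR-30a-3p was 1.09, 0.87 and 1.53 in EKO and 1.71, 1.34 and 1.91 in WT, overlapping, with a difference of -0.49 ± 0.25 (SE, exact permutation p = 0.2, adjusted p = 0.371). For miR-30d it was 10.44, 10.39 and 11.55 in EKO and 10.93, 10.88 and 10.65 in WT, a difference of -0.03 ± 0.39 (SE, exact permutation p = 1). In this hairpin the reads of the guide arm were between 1339 and 2999.9 times those of its partner. The balance of miR-30b, whose 3p arm is not a listed member, was not among the 13 ratios. Its log2 ratio of 5p to 3p reads was lower in EKO without overlap. The difference was -0.955, rank 9 from the lowest among the 52 hairpins.

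**Figure D3:**
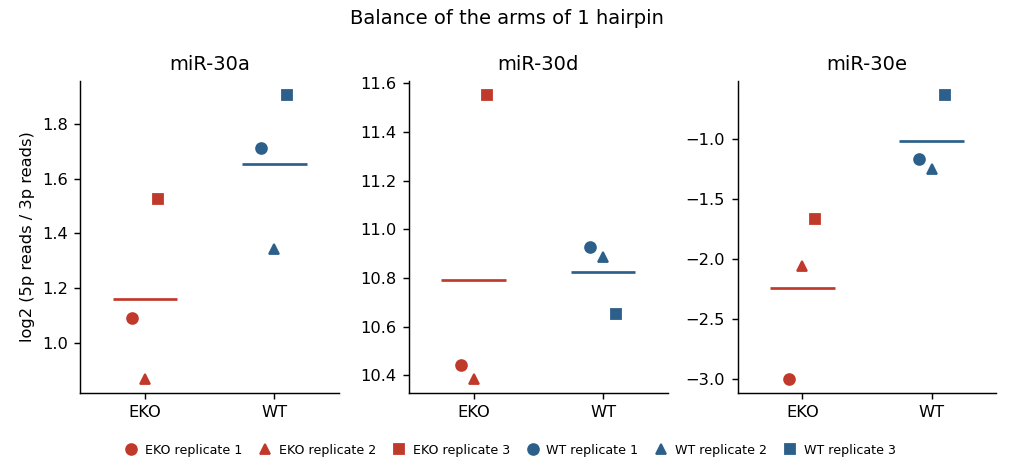
Log2 ratio of 5p to 3p reads of 3 miR-30 hairpins in each library, on a separate vertical scale for each hairpin. Points are libraries (red EKO, blue WT, shape by replicate) and bars are means of 3 libraries. For miR-30e the EKO libraries lie between -3.0 and -1.67 and the WT libraries between -1.25 and -0.63, and for miR-30a and miR-30d the genotypes overlap.

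Among the guide arms, each pair that did not overlap set miR-30a-5p or miR-30d-5p against miR-30c-5p or miR-30e-5p. The log2 ratio of miR-30c-5p to miR-30d-5p was -5.78, -5.83 and -5.36 in EKO against -5.01, -5.0 and -4.34 in WT, a difference of -0.87 ± 0.27 (SE). That of miR-30a-5p to miR-30c-5p differed by 0.65 ± 0.24, and that of miR-30d-5p to miR-30e-5p by 0.68 ± 0.22. Each of these 3 had an exact permutation p of 0.1 and an adjusted p of 0.325. They were 3 of 10 pairs, beside 38.6% of the 31125 pairs that can be formed from all references averaging at least 10 CPM, so such a count is not above the background. The ratio of miR-30c-5p to miR-30e-5p overlapped, with a difference of -0.19 ± 0.15 (exact permutation p = 0.3), as did the ratios of miR-30b-5p to either of them.

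The tables also give the number of distinct read sequences per arm, which is not scaled to the library total. The number of distinct read sequences assigned to miR-30c-5p was 216, 246 and 280 in EKO against 370, 354 and 435 in WT. For miR-30e-5p it was 160, 231 and 275 in EKO against 333, 317 and 342 in WT, and for miR-30b-5p 32, 67 and 71 in EKO against 84, 98 and 93 in WT. These 3 of the 8 members were lower in EKO without overlap, beside 32.5% of all tested miRNAs lower and 1.22% higher, so their count is near the background. For the other 5 members the genotypes overlapped, among them both other arms whose CPM did not overlap. For miR-30a-5p the number was 189, 207 and 249 in EKO and 243, 273 and 277 in WT, and for miR-30e-3p it was 397, 368 and 403 in EKO and 355, 392 and 361 in WT.

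Sharing of reads was slight for miR-30c-5p, miR-30e-5p and miR-30e-3p. The share of all reads matching an arm that the authors' estimate gave to other references was at most 0.0267% for miR-30c-5p, 0.0544% for miR-30e-5p and 0.853% for miR-30e-3p. It was larger for miR-30a-3p, at 12.6%, 5.17% and 10.1% in EKO and 6.88%, 5.16% and 8.43% in WT. The reads this took from miR-30a-3p (681, 280.0 and 503 in EKO, 327, 295 and 362 in WT) were close in number to those taken from miR-30e-3p (695, 306 and 479 in EKO, 348, 297 and 369 in WT). Of the 8 members, miR-30a-3p thus had the count that rested most on how shared reads were divided.

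Of the 4 other arms of miR-30 hairpins listed, none was called (edgeR), and the groups of each overlapped. The most abundant, miR-30b-3p, had 183, 152 and 209 CPM in EKO and 195, 187 and 202 CPM in WT, with a log2 fold change of -0.10 ± 0.16 (SE, edgeR adjusted p = 0.838). The levels of miR-30c-1-3p were 12.9, 12.5 and 7.35 CPM in EKO and 11.8, 8.35 and 7.55 CPM in WT. Its relative miR-30c-2-3p, from the hairpin on the other chromosome, had 17.3, 24.7 and 0 CPM in EKO and 6.24, 5.39 and 14.4 CPM in WT. The 24.7 CPM of EKO replicate 2 stood for 988 reads, while replicate 3 held none, and a count of 0 there allows up to 0.0809 CPM before TMM scaling, for counting error alone. The last, miR-30f, had 6, 6 and 5 reads in EKO and 7, 2 and 0 reads in WT and was not tested.

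Across the 6 libraries the closest profiles were those of miR-30b-5p, miR-30c-5p and miR-30e-5p. On the log2 scale they correlated with each other at Pearson's r of 0.92 to 0.96, and with miR-30e-3p at -0.94, -0.93 and -0.96. Weaker correlations of the same signs were those of miR-30a-3p, at 0.89 with miR-30e-3p and -0.74 to -0.78 with the 3 guide arms, and of miR-30a-5p, at 0.45 to 0.70 with the 3 guide arms. The correlation of miR-30d-5p with each of the other 4 guide arms was between 0.20 and 0.38. These are descriptions over 6 libraries, which share the difference between genotypes and the scaling. Inside each genotype miR-30b-5p, miR-30c-5p and miR-30e-5p were highest in replicate 3, where miR-30e-3p was lowest.

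The miRNAs whose profile was most like the mean log2 CPM of the 5 guide arms, among 239 others averaging at least 10 CPM, were miR-26a-5p (Pearson's r = 0.998 over 6 libraries), let-7g-5p (0.997), miR-17-5p (0.992), miR-186-5p (0.991) and miR-340-5p (0.990). All 5 had lower values in every EKO library than in any WT library, which choosing them by likeness to a mean that differs between genotypes makes likely. The level of miR-26a-5p, for one, was 3915, 4798 and 6592 CPM in EKO against 7392, 7619 and 9286 CPM in WT, with a log2 fold change of -0.67 ± 0.19 (SE, edgeR adjusted p = 0.0965). Those of the other 4 ranged from -1.09 ± 0.26 for miR-17-5p to -0.58 ± 0.15 for let-7g-5p.

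**Figure D4:**
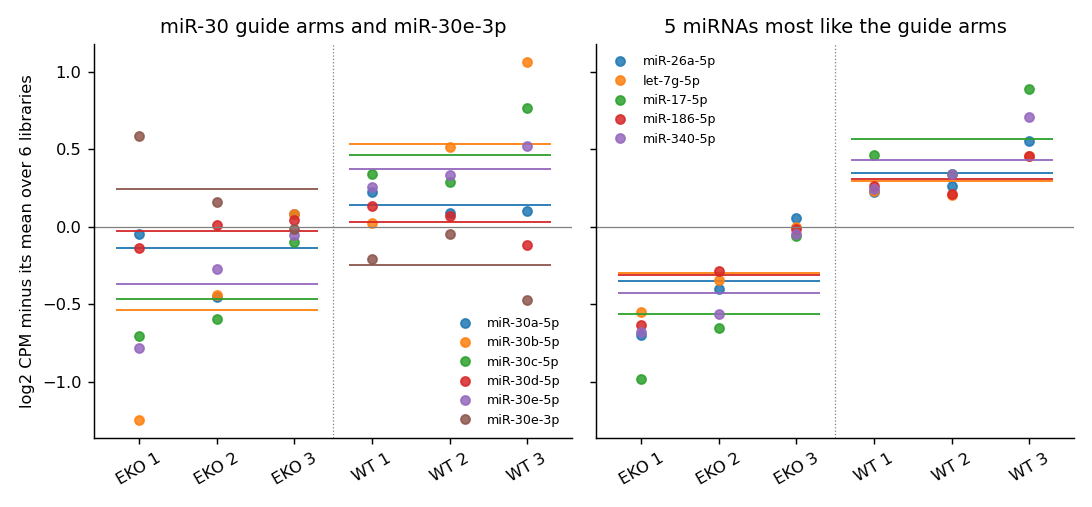
Log2 CPM of each arm minus its mean over the 6 libraries, for the 5 guide arms and miR-30e-3p (left) and for the 5 miRNAs most like the guide arms (right). Points are libraries, EKO left and WT right of the dotted line, and bars are means of 3 libraries. For miR-30b-5p, miR-30c-5p, miR-30e-5p and the 5 like miRNAs the lowest point is EKO replicate 1 and the highest WT replicate 3, and for miR-30e-3p the highest is EKO replicate 1 and the lowest WT replicate 3.

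Other miRNAs described for cholesterol efflux, lipoprotein uptake or lipid synthesis were counted beside miR-30c. Of 21 named, 19 were tested and none was called (edgeR). Lower values in EKO were found for 14 of them, beside 58.3% of all tested miRNAs, and higher values for 5. At an unadjusted p under 0.05, 7 were lower, beside 13% of all tested miRNAs, and 3 higher, beside 8.35%. Their median log2 fold change was -0.30. The 4 with the smallest p were miR-19b-3p (-1.61 ± 0.26 SE), miR-122-5p (1.24 ± 0.25), miR-148a-3p, which acts on the LDL receptor transcript (0.98 ± 0.23), and miR-27b-3p (-0.49 ± 0.12).

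Markers of the labelled cell type and of others that marrow cultures can hold were summed in plain CPM. All 6 haematopoietic and myeloid miRNAs were present. They summed to 143029 to 171232 CPM in EKO and 215752 to 228577 CPM in WT, mostly miR-21a-5p. Of the 6, 4 had lower values in EKO, beside 58.3% of all tested miRNAs. The other 2 had higher values, miR-223-5p in every EKO library (log2 fold change 0.46 ± 0.10 SE) and miR-146a-5p with overlap (0.07 ± 0.15). The 5 stromal miRNAs summed to 77.5 to 118 CPM in EKO and 183 to 225 CPM in WT, mostly miR-143-3p. Of the 4 tested, 3 were lower in value. The level of miR-145a-5p was 0 in every EKO library and in 2 of 3 WT libraries. The 3 lymphoid miRNAs summed to 489 to 592 CPM in EKO and 684 to 801 CPM in WT, mostly miR-181a-5p and miR-181b-5p. All 3 were lower in value, but only miR-181b-5p without overlap (log2 fold change -0.46 ± 0.13 SE). The groups of miR-181a-5p overlapped, as did those of miR-150-5p (-0.51 ± 0.64), which had at most 5.96 CPM in any library. The haematopoietic, stromal and lymphoid sums were lower in EKO without overlap between genotypes, where 18.8% of all tested miRNAs were singly so. Each of these sums rested mostly on the miRNAs named for it. Their direction was that of the mean levels of miR-30b-5p, miR-30c-5p and miR-30e-5p. The part of these sums in the differences of those arms was not tested. The sums of epithelial miRNAs (116 to 183 CPM in EKO, 147 to 159 CPM in WT), erythroid miRNAs (117 to 145 CPM in EKO, 127 to 159.8 CPM in WT) and muscle miRNAs (2.83 to 25.3 CPM in EKO, 0.653 to 3.25 CPM in WT) overlapped. The erythroid sum was nearly all miR-486a-5p, listed jointly with miR-486b-5p. The red-cell miRNA miR-451a had 6.32, 5.25 and 1.26 CPM in EKO and 0, 0 and 0.560 CPM in WT after TMM scaling, higher in every EKO library (edgeR adjusted p = 0.260), and its part in the differences of the members was not tested. Of the defining markers, miR-144-3p and miR-133a-3p were listed in no library.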

How the data were processed

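Small RNA from 3 EKO and 3 WT macrophage cultures was purified on RNeasy columns and made into libraries with an NEB kit, per the labels' protocols. The submitters' processing notes list mm9 as the build. The program that aligned or counted them is not given in the sources used here. Per the file headers, each deposited table holds whole-number counts (distinct read sequences and total reads per reference) and the authors' estimated counts, which divide a read among all the references it matches. The deposited molecular-barcode column summed to 0, so PCR copies were not removed, and the floor given covers counting error only. A reference missing from a table was taken as 0. Stem-loop references (0.00127% to 0.00161% of reads) were left out of the comparisons. No replicate pair held alike counts (chi-square per degree of freedom 211 to 1743).

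Estimated counts were rounded to whole numbers and tested with edgeR 4.0.16 in R 4.3.3 (TMM, filterByExpr, glmQLFit and glmQLFTest on genotype alone, adjusted p threshold 0.05), after the fit was tested on simulated data. The SE is the log2 fold change divided by the square root of F. Ratios used estimated counts with 0.5 reads added, and permutation tests used scipy 1.17.1. Alternatives were DESeq2 1.42.0, limma-voom (limma 3.58.1), other scalings and filters, a base-composition correction (loess, span 0.75, sequences from RefSeq GRCm38.p6 by name; miRNAs without one took the median in the fit and are given no value), a block for replicate number, and fits without each library. Coordinates are of GRCm38.p6, not mm9.

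The miRNAs named are the 8 members, the other listed arms of their hairpins, the 5 most correlated with the mean guide arm, and up to 4 of the lipid list with an unadjusted p under 0.05. Members and lists were chosen with earlier results of these data known.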

Additional observations from a re-analysis of the deposited data

Results flagged for a closer look

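Reads on the hairpin outside its mature arms, which no comparison used, were seen for miR-30e in the EKO libraries and in no WT library. They came to 0.0144, 0.0126 and 1.24 CPM in EKO replicates 1 to 3, a mean of 0.422, against 0 in each WT library. The mean rests on EKO replicate 3, and the other 2 EKO values lie below the level that a count of 0 allows, 0.0759 to 0.0866 CPM in those libraries. Such reads of the Mir30c-1 hairpin went the other way, at 0, 0 and 0.0360 CPM in EKO against 0.0434, 0.145 and 0.114 CPM in WT, without overlap. Of these, 0.0360 and 0.0434 CPM also lie below the level that a count of 0 allows, and the lack of overlap rests on them. Mir30c-2 was given the same values in those libraries, EKO replicate 3 and WT replicate 1. Whether these are reads divided between both hairpins was not tested. The hairpin reads of Mir30a, Mir30b and Mir30c-2 overlapped. None of these differences was tested.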

How the results depend on the processing

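Under the alternatives tried for the log2 fold changes of the 8 members, 115 values kept their direction and side of the threshold, 19 newly passed it and 7 turned. The members called numbered 0 higher and 0 lower in EKO in the reported fit. They also numbered 0 and 0 in edgeR with DESeq2 size factors, upper-quartile factors or scaling to library totals alone. The same held for total in place of estimated reads and without the 3 most abundant miRNAs. They numbered 1 and 2 with DESeq2 and with no low-count filter, and 0 and 1 with limma-voom. Under the filters of 10 reads in every library and of a mean of 10 CPM they numbered 0 and 2, and 1 and 1 with the base-composition correction. Whether equal replicate numbers mark pairs is not known. Departures from the genotype means correlated at 0.12, -0.10 and 0.17 for equal numbers, and at 0.24 for EKO replicate 1 with WT replicate 2. With 3 libraries per genotype such departures are tied to each other, so these values cannot decide it. The replicate block gave 1 and 3 members, and 26 and 36 of all miRNAs where the reported fit called 0. The 3 lower were miR-30b-5p (adjusted p = 0.00676, edgeR), miR-30c-5p and miR-30e-5p. Leaving out each library gave 0 to 2 members lower and 0 higher; the 2, miR-30c-5p and miR-30e-5p (adjusted p = 0.0277 and 0.0401, edgeR), came without EKO replicate 3, where 29 of 634 miRNAs were lower and 16 higher. Over all miRNAs, 24 were called higher and 28 lower of 910 with no low-count filter, and 21 and 22 of 370 with 10 reads in every library. Without 1 library the log2 fold change ranged from -1.13 to -0.75 for miR-30c-5p, -0.88 to -0.53 for miR-30e-5p, -1.38 to -0.71 for miR-30b-5p, -0.38 to -0.11 for miR-30a-5p (nearest 0 without EKO replicate 2), 0.0775 to 0.37 for miR-30a-3p and 0.31 to 0.62 for miR-30e-3p. The values that turned were near 0: miR-30d-5p at 0.0248 with DESeq2 and with its size factors and -0.12 to 0.00236 without 1 library (positive without EKO replicate 1), and miR-30d-3p at -0.0302 with limma-voom, -0.0228 with the replicate block and -0.17 to 0.32 without 1 library. Among the ratios, 112 values kept their direction and 5 turned, judged by sign alone. Without 1 library miR-30b-5p over miR-30c-5p ranged from -0.33 to 0.10 and miR-30d-5p over miR-30d-3p from -0.41 to 0.17. The cause of these changes was not tested.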
